A study of Mus musculus with 6 samples.

Results

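The basement membrane and matrix genes described here are 10 genes chosen by symbol: the type IV collagen chains Col4a1 and Col4a2, the laminin chains Lama1, Lama5, Lamb1 and Lamc1, the linkers Nid1 and Hspg2, and Fn1 and Sparc. The count table had 21978 entries, 16498 of which passed the filter on low counts, and all 10 members were among those tested. RNA sequencing measured them in cultured embryonic stem cells of the mouse, in groups with different DGCR8. DGCR8 binds RNA and works with the nuclease DROSHA to cut primary microRNA transcripts. There were 6 libraries, 2 in each of 3 groups.

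The KO group was labelled DGCR8 -/- and non-transfected, and the titles of both of its libraries, numbered 1 and 3, named clone 261. The wt group carried the genotype label DGCR8 wt/wt and received the vector pSB ET iE-FlagDGCR8-wt together with the transposase plasmid pCMV(CAT)-SB100X, with 1 library each from clones 12 and 16. The E518K group carried the label DGCR8 E518K/E518K and received pSB ET iE-FlagDGCR8-E518K together with the same transposase plasmid, pCMV(CAT)-SB100X, with 1 library each from clones 8 and 15. All cells shared the strain label NBA1-19349, received 300 ng/mL doxycycline for 48 h, and grew without feeders on gelatin in medium with LIF and the inhibitors CHIR99021 and PD0325901. Each transfected library was therefore 1 clone, and the KO cells carried no vector, so DGCR8 status and transfection cannot be told apart in any comparison with KO. Nothing in the labels says that the KO libraries were separate cultures, and the p-values below measure the spread between these libraries.

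A basement membrane is a thin sheet of matrix on which epithelial cells rest. Laminin trimers of an α, a β and a γ chain polymerise at the cell surface, bound by integrins and dystroglycan, and a covalently crosslinked network of type IV collagen trimers is laid down beside them. Nidogens and perlecan bridge the networks, fibronectin is a fibril-forming glycoprotein read by integrins, and SPARC is a secreted collagen-binding glycoprotein. In the early mouse embryo laminin is among the first matrix proteins made, and the basement membrane borders the pluripotent epiblast.

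DGCR8 is needed to make most microRNAs, so sequences that such microRNAs can pair with are shown for the members that hold them. The mature microRNAs below are from RefSeq (GRCm38.p6), written 5′ to 3′, and capitals mark the seed, bases 2 to 8. The miR-29 family is known for collagen targets, miR-294 and miR-291a belong to the family typical of embryonic stem cells, and let-7 is the family of differentiated cells.
miR-29a-3p: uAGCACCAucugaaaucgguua
miR-29b-3p: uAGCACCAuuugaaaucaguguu
miR-29c-3p: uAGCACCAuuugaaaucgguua
miR-294-3p: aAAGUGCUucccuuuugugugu
miR-291a-3p: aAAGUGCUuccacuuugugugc
let-7a-5p: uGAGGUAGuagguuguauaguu
The 3 miR-29 forms share 1 seed, and miR-294-3p and miR-291a-3p share another.

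The matches below are 21-base windows of the 3′ UTRs of GENCODE M21 transcripts (GRCm38), on the strand of the gene, and capitals mark the 7 letters complementary to a seed. Matches to miR-29 were TGGTGCT, those to miR-294 and miR-291a were AGCACTT, and those to let-7 were CTACCTC.
Col4a1, miR-29, chr8:11199760-11199780, minus strand: accgtcacaacaTGGTGCTac
Col4a2, miR-29, chr8:11448347-11448367, plus strand: ggaaggccacgtTGGTGCTta
Col4a2, miR-29, chr8:11448518-11448538, plus strand: ccacacccagctTGGTGCTta
Lamc1, miR-29, chr1:153220067-153220087, minus strand: tatctgacacacTGGTGCTat
Col4a2, miR-294, chr8:11448971-11448991, plus strand: ggaggagatgatAGCACTTtt
Nid1, miR-294, chr13:13510367-13510387, plus strand: gcctgcaaccctAGCACTTgg
Nid1, let-7, chr13:13511835-13511855, plus strand: gaacagagccccCTACCTCct
Nid1, let-7, chr13:13511885-13511905, plus strand: caaccctatctcCTACCTCca
A miR-29 match lay in 3 of 10 members, against 13.7% of 18907 genes with an annotated 3′ UTR. A match to the miR-294 seed lay in 2 members against 15.4% of genes, and a let-7 match in 1 member against 9.5%. The median 3′ UTR was 968 bases in the members and 1030 bases over all genes. A match is a stretch of letters, and microRNAs were not measured in these libraries.

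Col4a1 and Col4a2, the 2 chains of the common type IV collagen trimer, lie head to head on chromosome 8 and share a promoter. Their annotated spans overlap by 22 bases, which are in capitals in the window below (chr8:11312555-11312854, plus strand of Col4a2, RefSeq GRCm38.p6, from 250 bases before its start to 50 bases after it).
Col4a2 promoter: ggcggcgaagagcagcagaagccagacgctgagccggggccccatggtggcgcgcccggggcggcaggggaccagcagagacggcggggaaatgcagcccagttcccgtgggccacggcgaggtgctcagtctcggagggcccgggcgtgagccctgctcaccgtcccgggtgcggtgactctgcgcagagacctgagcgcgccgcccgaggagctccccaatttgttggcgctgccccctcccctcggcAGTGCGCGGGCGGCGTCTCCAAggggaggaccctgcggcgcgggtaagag
A RefSeq window of this length was found for 7 of 10 members, and Lama1, Lamc1 and Fn1 had none. Searched on both strands, TATAAA was in 0 of these 7 windows and in 13.6% of 32851 windows of all genes. GGGCGG was in the windows of Col4a1, Col4a2, Lama5, Lamb1, Nid1 and Hspg2 and in 35.7% of all windows, and CCAAT was in those of Col4a1, Col4a2, Lamb1 and Nid1 and in 37.4% of all. The windows were 55.3% to 74% G and C, lowest in Sparc and highest in Col4a1, beside a median of 52.7% over all genes.

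Library totals were 73642784 to 75121971 counts. Dgcr8, whose span overlaps Trmt2a, was at 40.0 and 37.1 CPM (counts scaled to library size with TMM factors) in KO, 195.5 and 992.4 in wt clones 12 and 16, and 820.6 and 420.2 in E518K clones 8 and 15, so the KO libraries were below all others and the wt and E518K clones overlapped. Replicates were unequally spread: the biological coefficient of variation was 2.6% in KO, 9.19% in E518K and 20.6% in wt. Count divided by TPM gave lengths near the whole gene span, introns included, which is the length behind the deposited TPM. Whether reads in introns were counted is not given, so levels per exonic kilobase may include them. Whether strand was used in counting is not given in the labels. Of the members, 7 overlapped another annotated gene, among them antisense genes inside Col4a1 (Gm15418, 6081 bases), Col4a2 (Gm15419, 18707 bases) and Nid1 (Gm48682, 8063 bases); none of these had an entry in the table, and their part in the counts was not tested. Cultures were measured in bulk, in which fewer cells that make a transcript and less of it per cell cannot be told apart.

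Fn1 was the most abundant member per kilobase of exon and Col4a2 the least. Fn1 ranged from 143.3 to 199.3 CPM per exonic kilobase over the 6 libraries (median 157.6), Sparc from 63.9 to 97.1 (median 88.2) and Lamc1 from 57.1 to 86.7 (median 80.1). These were followed by Nid1 (median 32.7), Hspg2 (22.6) and Lama5 (17.4). The remaining chains were far lower, with medians of 2.15 for Lama1, 0.841 for Lamb1, 0.671 for Col4a1 and 0.318 for Col4a2 in CPM per exonic kilobase. Each gene was above the next in all 6 libraries, except that Sparc was above Lamc1, Hspg2 above Lama5, and Lamb1 above Col4a1 in 4 of 6. The deposited TPM values, which are per kilobase of gene span, placed Lama5 above Hspg2 and Hspg2 above Nid1 and kept the other ranks. The 10 members together took 3782.6 and 3809.9 CPM in KO, 3309.0 and 3410.3 in E518K, and 3584.2 and 4035.5 in wt, of which Fn1 alone was 48.3% to 57.7%.

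**Figure D1:**
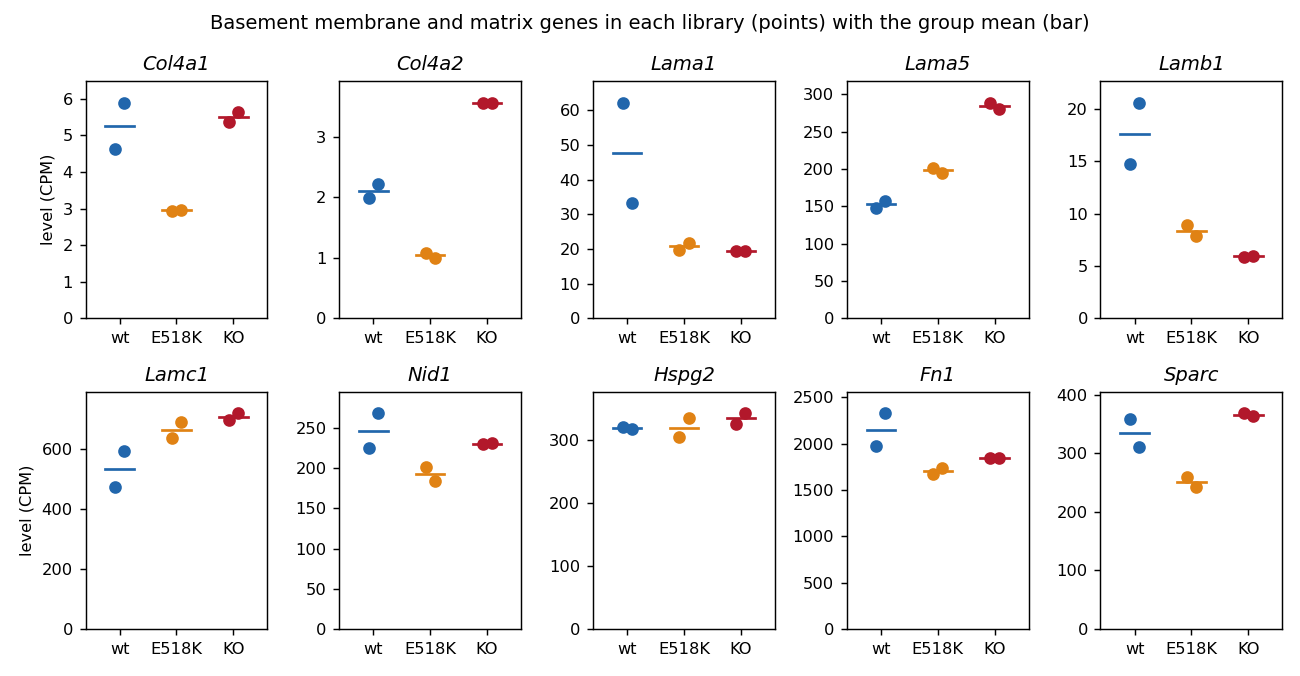
Level of each of the 10 members in every library, in CPM on linear axes that start at 0, with points for single libraries of wt, E518K and KO and a short line at each group mean. Lama1 and Lamb1 are lower in both KO and both E518K libraries than in either wt clone, and Lama5 is highest in KO. Col4a1, Col4a2, Nid1, Fn1 and Sparc are lowest in E518K.

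The members moved in different directions between groups. In KO against wt, edgeR's quasi-likelihood test with Benjamini-Hochberg adjustment (threshold 0.05) called 3 of 10 members higher, where 27.4% of all tested genes were higher, and 3 lower, where 29.7% were lower. In E518K against wt it called 1 member higher, beside 11.3% of all genes, and 7 lower, beside 12.5%. In E518K against KO it called 0 higher, beside 22.0% of all genes, and 4 lower, beside 19.8%. At an unadjusted p under 0.05, 1 member was higher in E518K than in KO, and DESeq2 called 1 higher, Lamb1 in both cases. The median log2 fold change of the members was 0.06 in KO against wt, -0.38 in E518K against wt and -0.18 in E518K against KO, where the median over all tested genes was -0.02 each time. The 3 comparisons share libraries and are not independent of each other.

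The number of members called in E518K against wt changed when single libraries were left out, which also lowers the residual degrees of freedom below 3. The median log2 fold change of the members moved less, from -0.46 (without wt clone 12) to -0.35 (without E518K clone 15). With E518K clone 15 left out, edgeR called 0 members (7 had an unadjusted p under 0.05), with E518K clone 8 left out 2, and without KO library 1 or KO library 3, which enter this comparison only through the common estimate of the spread, there were 4. In KO against wt, leaving out KO library 1 or KO library 3 left 3 of the 6 calls. Among all genes called in E518K against wt, 47.5% were higher with TMM factors, 37.5% when upper-quartile factors were used, and 27.0% with limma on TPM. For E518K against KO these shares were 52.7% with TMM factors and 42.6% with limma on TPM.

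**Figure D2:**
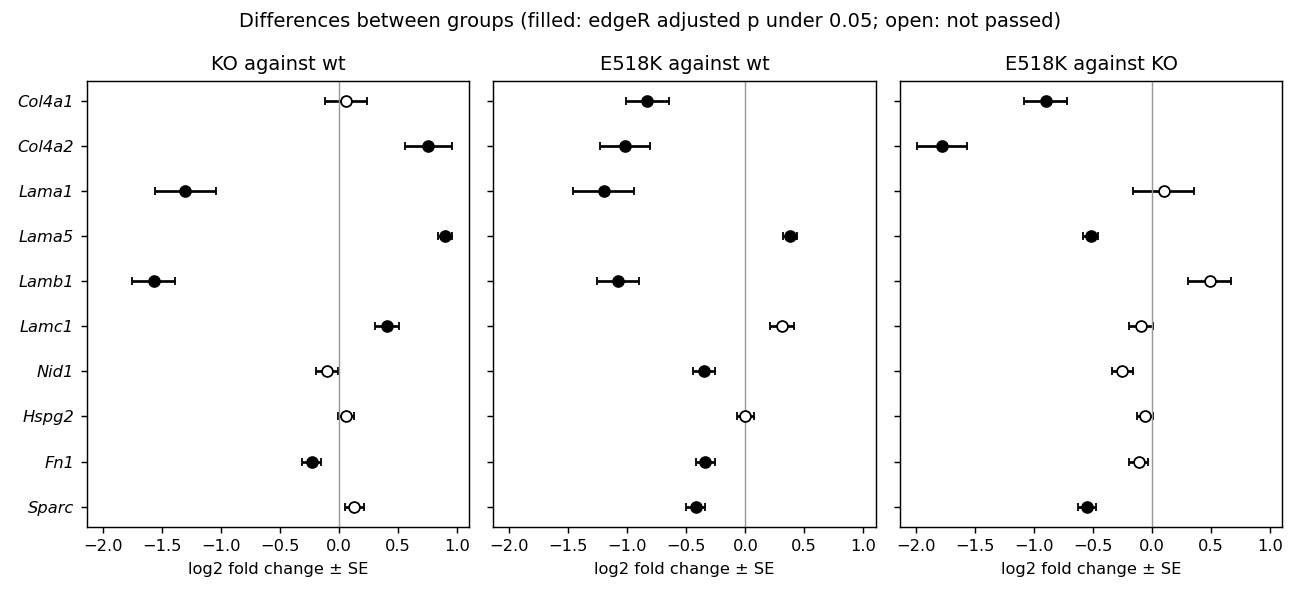
Log2 fold change of each member in KO against wt, E518K against wt and E518K against KO, with bars for 1 standard error; filled points passed the test. In KO against wt Lama5 is the highest point at 0.90 and Lamb1 the lowest at -1.57. In both E518K comparisons Col4a1, Col4a2, Nid1, Fn1 and Sparc lie below 0.

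The type IV collagen chains were lowest in E518K. Col4a1 (ENSMUSG00000031502, chr8:11198423-11312826, minus strand) was at 5.38 and 5.63 CPM in KO, 2.94 and 2.96 in E518K, and 4.63 and 5.90 in wt. Both E518K clones were thus below the 4 other libraries, and KO lay within the wt range. Relative to wt, Col4a1 was 1.78-fold lower in E518K (log2 fold change -0.83 ± 0.18 SE, adjusted p = 0.0182) and differed by 0.06 ± 0.18 in KO (adjusted p = 0.774), by the edgeR test. Relative to KO it was 1.86-fold lower in E518K (-0.90 ± 0.18, edgeR adjusted p = 0.00669). The E518K against wt call was lost without KO library 1 (adjusted p = 0.0595), KO library 3 (0.06), E518K clone 8 (0.0914) or E518K clone 15 (0.115), each with a log2 fold change of -0.83. The E518K against KO call was lost without KO library 1 (-0.93, adjusted p = 0.0527), KO library 3 (-0.86, 0.0648) or E518K clone 8 (-0.89, 0.0515).

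Col4a2 (ENSMUSG00000031503, chr8:11312805-11449287, plus strand) was at 3.56 and 3.55 CPM in KO, 1.08 and 0.988 in E518K, and 1.99 and 2.22 in wt. The 3 groups did not overlap, with KO highest and E518K lowest. It was 3.43-fold lower in E518K than in KO (log2 fold change -1.78 ± 0.21 SE, edgeR adjusted p = 0.000841), a call kept in all 12 alternative analyses. It was 2.03-fold lower in E518K than in wt (-1.02 ± 0.21, edgeR adjusted p = 0.0155) and higher in KO than in wt (0.76 ± 0.20, edgeR adjusted p = 0.0146). Without KO library 1 or KO library 3 the KO against wt call was lost (0.75 and 0.76, adjusted p = 0.107 for each), and the E518K against wt call was lost without KO library 1 (-1.02, adjusted p = 0.0607), KO library 3 (-1.02, 0.0605), E518K clone 8 (-1.09, 0.0679) or E518K clone 15 (-0.95, 0.112). The chains had few reads, 212 to 436 for Col4a1 and 72 to 275 for Col4a2 in a library.

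The paired chains were not in constant proportion. The ratio of Col4a1 to Col4a2 counts was 1.51 and 1.58 in KO, 2.72 and 3.0 in E518K, and 2.33 and 2.66 in wt, so both KO libraries were below the 4 others, and every E518K library was above every wt library. With 2 libraries against 2, an exact two-sided permutation test cannot go below p = 0.33, and no test of the ratio is given.

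Among laminin α chains, Lama1 was lower and Lama5 higher in KO than in wt. Lama1 (ENSMUSG00000032796, chr17:67697259-67822647, plus strand), the α1 chain of the early embryo, was at 19.3 and 19.5 CPM in KO, 19.7 and 21.8 in E518K, and 62.2 and 33.1 in wt clones 12 and 16. Both wt clones were above the 4 other libraries, and they differed from each other more than any KO or E518K pair. Lama1 was 2.46-fold lower in KO than in wt (log2 fold change -1.30 ± 0.26 SE, edgeR adjusted p = 0.00447), called in all 12 alternatives, with values from -1.69 to -0.77 when single libraries were left out. Against wt, E518K was lower too (-1.20 ± 0.26, edgeR adjusted p = 0.0183), a call lost without E518K clone 8 (-1.12, adjusted p = 0.123) or E518K clone 15 (-1.26, 0.128). E518K and KO differed by 0.10 ± 0.26 (edgeR adjusted p = 0.78).

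Lama5 (ENSMUSG00000015647, chr2:180176373-180225859, minus strand) encodes the α5 chain, a ligand of integrins of the α6β1 type and widely used in epithelial basement membranes. It was at 288.9 and 280.0 CPM in KO, 201.1 and 195.0 in E518K, and 148.1 and 157.3 in wt. The groups did not overlap: KO was highest, E518K intermediate and wt lowest. Lama5 was 1.86-fold higher in KO than in wt (log2 fold change 0.90 ± 0.06 SE, edgeR adjusted p = 6.29e-05) and lower in E518K than in KO (-0.52 ± 0.06, edgeR adjusted p = 0.000833), both called in all 12 alternatives. It was the member called higher in E518K than in wt (0.38 ± 0.06, edgeR adjusted p = 0.00736). That call was lost without E518K clone 15 (0.41) or with limma on TPM (0.30, adjusted p = 0.0541).

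The β and γ chains of the same trimers also moved in opposite directions. Lamb1 (ENSMUSG00000002900, chr12:31265234-31329644, plus strand), the β1 chain, was at 5.87 and 5.99 CPM in KO, 8.86 and 7.82 in E518K, and 14.7 and 20.6 in wt, again without overlap between groups. It was 2.98-fold lower in KO than in wt (log2 fold change -1.57 ± 0.18 SE, edgeR adjusted p = 0.000405), called in all 12 alternatives. E518K was also lower than wt (-1.08 ± 0.18, edgeR adjusted p = 0.00735), a call lost without E518K clone 15 (-0.98, adjusted p = 0.0839). E518K against KO gave 0.49 ± 0.18 (edgeR adjusted p = 0.0616), which passed without wt clone 12 (0.50, adjusted p = 0.00388) or wt clone 16 (0.50, 0.00446).

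Lamc1 (ENSMUSG00000026478, chr1:153218922-153332786, minus strand), the γ1 chain shared by most laminins, was at 695.2 and 717.4 CPM in KO, 636.3 and 688.6 in E518K, and 472.6 and 592.5 in wt. Both wt clones were below the 4 other libraries. Lamc1 was higher in KO than in wt (log2 fold change 0.41 ± 0.10 SE, edgeR adjusted p = 0.0134), a call lost without KO library 1 (0.43, adjusted p = 0.0509) or KO library 3 (0.38, 0.0716). E518K against wt gave 0.31 ± 0.10 (edgeR adjusted p = 0.0689), which passed with DESeq2 (0.33, adjusted p = 0.023) or without wt clone 16 (0.49). E518K against KO gave -0.09 ± 0.10 (edgeR adjusted p = 0.506).

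Within a library, these differences changed the proportions of the chains. The ratio of Lama1 to Lama5 counts was 0.0667 and 0.0696 in KO, 0.098 and 0.112 in E518K, and 0.42 and 0.21 in wt clones 12 and 16. The ratio of Lamb1 to Lamc1 counts was 0.00844 and 0.00835 in KO, 0.0139 and 0.0114 in E518K, and 0.0312 and 0.0347 in wt. In both ratios KO was lowest, E518K intermediate and wt highest, with no overlap. The wt clones differed more from each other in the ratio of Lama1 to Lama5 than in that of Lamb1 to Lamc1. Lama1 to Lamc1 had the same order of groups, but Lama5 to Lamc1 did not. The ratio of Lama5 to Lamc1 counts was highest in KO (0.416 and 0.39) and overlapped between E518K (0.316 and 0.283) and wt (0.313 and 0.265).

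**Figure D3:**
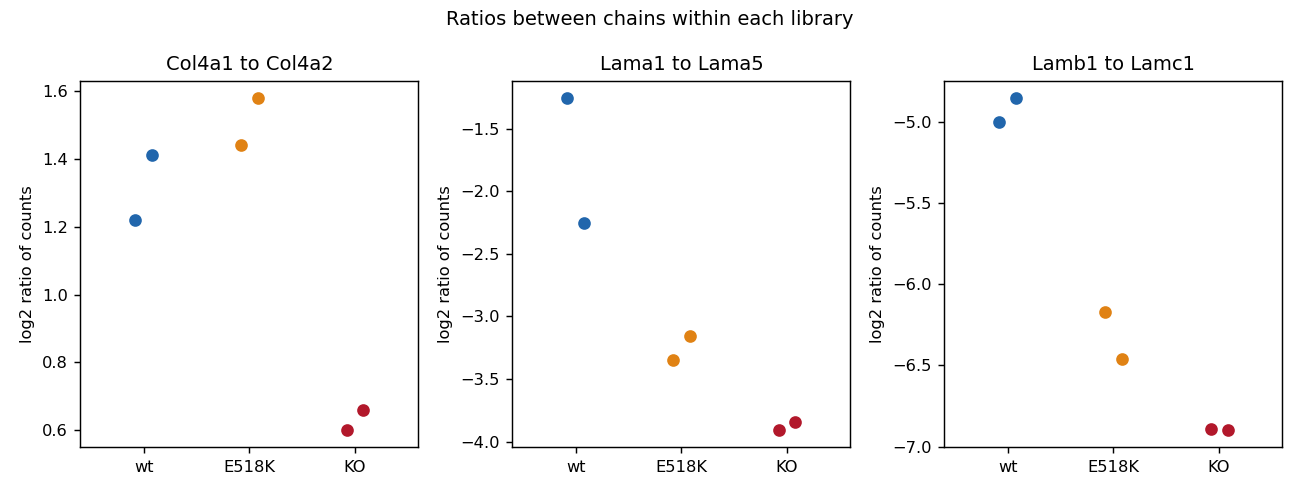
Log2 ratio of counts of Col4a1 to Col4a2, Lama1 to Lama5 and Lamb1 to Lamc1 in each library of wt, E518K and KO (points). The collagen ratio is lowest in KO (0.60 and 0.66) and highest in E518K (1.44 and 1.58), and both laminin ratios fall in the order wt, E518K, KO.

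The linkers varied less. Nid1 (ENSMUSG00000005397, chr13:13437551-13512269, plus strand), nidogen, which binds the laminin γ1 chain and type IV collagen, was at 229.5 and 230.8 CPM in KO, 201.5 and 184.5 in E518K, and 224.6 and 268.2 in wt. Both E518K clones were below the 4 other libraries. Nid1 was lower in E518K than in wt (log2 fold change -0.35 ± 0.09 SE, edgeR adjusted p = 0.0338). That call was lost without KO library 1 (-0.35, adjusted p = 0.0812), KO library 3 (-0.35, 0.081), E518K clone 8 (-0.42, 0.09) or E518K clone 15 (-0.28, 0.216). E518K against KO gave -0.25 ± 0.09 (edgeR adjusted p = 0.0629), which passed without wt clone 12 (-0.25, adjusted p = 0.0029) or wt clone 16 (-0.25, 0.00288). KO against wt gave -0.10 ± 0.09 (edgeR adjusted p = 0.39), which passed without wt clone 12 (-0.22, adjusted p = 0.0141).

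Hspg2 (ENSMUSG00000028763, chr4:137468769-137570630, plus strand) encodes perlecan, the heparan sulphate proteoglycan of basement membranes. It was at 326.0 and 342.2 CPM in KO, 304.8 and 334.0 in E518K, and 321.2 and 317.5 in wt, and the E518K clones overlapped both other groups. Hspg2 passed no edgeR test. KO differed from wt by 0.06 ± 0.07 SE on the log2 scale (adjusted p = 0.425), E518K from wt by 0.00 ± 0.07 (1.0) and E518K from KO by -0.06 ± 0.07 (0.458).

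Fibronectin was highest in wt. Fn1 (ENSMUSG00000026193, chr1:71585520-71653200, minus strand) was at 1840.9 and 1841.6 CPM in KO, 1674.1 and 1732.6 in E518K, and 1976.0 and 2328.4 in wt. The groups did not overlap, but the wt clones were further apart than KO was from the lower of them. Fn1 was lower in KO than in wt (log2 fold change -0.23 ± 0.08 SE, edgeR adjusted p = 0.0456) and in E518K than in wt (-0.34 ± 0.08, edgeR adjusted p = 0.025). Of 12 alternatives, 3 kept the KO against wt call. DESeq2 (-0.21, adjusted p = 0.0508), edgeR on only the 4 libraries compared (-0.21, 0.0986) and limma on TPM (-0.17, 0.309) lost it. For E518K against wt 5 of 12 kept the call. Here edgeR on only the 4 libraries compared (-0.33, adjusted p = 0.0667) and limma on TPM (-0.39, 0.101) lost it. The KO against wt call was lost without KO library 1 (-0.23, adjusted p = 0.169), KO library 3 (-0.23, 0.171), wt clone 16 (-0.11, 0.0997), E518K clone 8 (-0.23, 0.078) or E518K clone 15 (-0.23, 0.0737). The E518K against wt call was lost without KO library 1 (-0.34, adjusted p = 0.0655), KO library 3 (-0.34, 0.0651), E518K clone 8 (-0.31, 0.131) or E518K clone 15 (-0.35, 0.13).

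Sparc was lowest in E518K, as the collagen chains, Nid1 and Fn1 were. Sparc (ENSMUSG00000018593, chr11:55394500-55423183, minus strand), whose product binds type IV collagen, was at 368.0 and 363.3 CPM in KO, 258.7 and 242.1 in E518K, and 358.2 and 309.8 in wt. Both E518K clones were below the 4 other libraries, and both KO libraries were above both wt clones. Sparc was lower in E518K than in KO (log2 fold change -0.55 ± 0.08 SE, edgeR adjusted p = 0.00196), called in all 12 alternatives. It was lower in E518K than in wt (-0.42 ± 0.08, edgeR adjusted p = 0.0129), a call lost without E518K clone 8 (-0.46, adjusted p = 0.0566) or E518K clone 15 (-0.36, 0.123). KO against wt gave 0.13 ± 0.08 (edgeR adjusted p = 0.2), which passed without wt clone 12 (0.24, adjusted p = 0.00713).

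Across the 6 libraries, which share groups and so are not 6 independent points, the level of each gene was compared with the mean of Col4a1 and Col4a2. Sparc had a Pearson r of 0.92 with that mean and Nid1 0.79, while Fn1 was at 0.52, Lama5 and Hspg2 at 0.40, Lama1 at 0.07, Lamc1 at 0.06 and Lamb1 at -0.07. Among 12061 other genes ranked, the closest were Uhrf1bp1 (r = 0.9988), Camta1 (0.9984), Fbxl4 (0.9959), Itpkb (0.9951) and Sec24b (0.9946). These values describe the libraries and carry no test.

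Other genes of basement membrane and matrix were taken as 9 lists with 108 genes, 103 of which were tested. In KO against wt 36 of the 103 were higher and 15 lower, beside 27.4% and 29.7% of all tested genes, with a median log2 fold change of 0.28. In E518K against wt 13 were higher and 17 lower, near the 11.3% and 12.5% of all tested genes, with a median of -0.01. For E518K against KO 10 were higher and 36 lower, beside 22.0% and 19.8% of all tested genes, with a median of -0.58. The 30 calls of E518K against wt became 8 when E518K clone 15 was left out, 15 when clone 8 was, 19 without KO library 1 or KO library 3 and 46 without wt clone 16. The 46 calls of E518K against KO became 23 without KO library 1, 24 without KO library 3, 27 when E518K clone 15 was left out and 30 when clone 8 was.

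Of 20 integrins and other receptors, the cell's contacts with these proteins, 9 were higher and 4 lower in KO against wt. Of all tested genes 27.4% were higher and 29.7% lower. Itgav, the αv chain of fibronectin and vitronectin receptors, was at 216.5 and 208.7 CPM in KO, 90.0 and 95.4 in E518K, and 57.7 and 63.0 in wt, with no overlap between groups. It was higher in KO than in wt by 1.82 ± 0.07 on the log2 scale (edgeR adjusted p = 1.36e-05) and higher in E518K than in wt by 0.62 ± 0.07 (0.00271). Itgb4, the β4 chain of the hemidesmosome's laminin receptor, was higher in KO by 1.92 ± 0.09 (edgeR adjusted p = 2.35e-05), and Itgb1, the β1 chain common to most laminin, collagen and fibronectin receptors, by 1.12 ± 0.06 (3.09e-05). Itgb1 was at 225.1 and 236.4 CPM in KO, 127.2 and 133.1 in E518K, and 106.0 and 106.2 in wt. In E518K against wt 6 receptors were higher and 4 lower, beside 11.3% and 12.5% of all tested genes. In E518K against KO 3 were higher and 9 lower, beside 22.0% and 19.8%. The counts of the lists below stand beside the same shares of all tested genes. The 10 calls of E518K against wt became 3 when E518K clone 15 was left out and 5 when clone 8 was.

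Of 7 other laminin chains tested, 3 were called in KO against wt, each higher in KO. Lamb2, the β2 chain that can take the place of β1, was at 66.8 and 68.2 CPM in KO, 37.1 and 39.0 in E518K, and 39.2 and 32.8 in wt, higher in KO than in wt by 0.91 ± 0.10 on the log2 scale (edgeR adjusted p = 0.000311). Lama2, the α2 chain of muscle, was higher by 1.49 ± 0.28 (edgeR adjusted p = 0.00357) at 0.579 to 2.0 CPM. E518K was lower than KO in 3 of the 7, the only calls of that comparison in this list, which became 1 call without KO library 1, KO library 3 or E518K clone 8 and 5 without wt clone 12 or wt clone 16.

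Of 12 other linkers and proteoglycans, 4 were higher and 1 lower in KO than in wt. Fras1, a matrix protein of embryonic epithelial basement membranes, was at 14.4 and 13.5 CPM in KO, 3.01 and 3.54 in E518K, and 0.966 and 1.68 in wt, higher in KO than in wt by 3.40 ± 0.26 on the log2 scale (edgeR adjusted p = 9.44e-05). Nid2, the second nidogen, was lower in KO by 0.45 on that scale (log2 fold change -0.45 ± 0.06, edgeR adjusted p = 0.00105), at 426.4 and 418.1 CPM against 548.9 and 605.0 in wt. Of 4 other type IV collagen chains 1, Col4a5, was called higher (1.33 ± 0.47, edgeR adjusted p = 0.0457), a call lost without KO library 1 (1.23, 0.179), KO library 3 (1.41, 0.127), wt clone 12 (0.85, 0.102), E518K clone 8 (1.33, 0.0732) or E518K clone 15 (1.32, 0.0733), while 3 of the 4 were called without wt clone 16.

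Genes that fold, modify and crosslink collagen were called in both directions in KO against wt, where 27.4% of all tested genes were higher and 29.7% lower. Of 18 genes of collagen folding, modification and secretion, 5 were higher and 3 lower in KO than in wt, and 13 were called without wt clone 16. P4ha2, a prolyl hydroxylase subunit, was at 2.31 and 2.93 CPM in KO, 2.01 and 2.43 in E518K, and 8.69 and 8.45 in wt, lower than wt by a log2 fold change of -1.71 ± 0.19 in KO (edgeR adjusted p = 0.000385) and -1.95 ± 0.20 in E518K (0.00177). Plod1, a lysyl hydroxylase, had -1.74 ± 0.20 for the same comparison of KO (edgeR adjusted p = 0.000449), and Crtap, of the prolyl 3-hydroxylation complex, had 0.68 ± 0.06 (0.000127). Of 6 crosslinking enzymes 2 were higher and 2 lower in KO, and 2 were called without KO library 1 or KO library 3. Loxl2, a lysyl oxidase that acts on type IV collagen, fell in steps from 10.6 and 11.0 CPM in wt to 2.37 and 2.56 in E518K and to 0.478 and 0.337 in KO. On the log2 scale KO stood at -4.72 ± 0.22 relative to wt (edgeR adjusted p = 2.12e-05) and E518K at -2.13 ± 0.19 (0.00131).

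Matrix proteases and their inhibitors gave 5 higher and 2 lower of 13 in KO against wt, among them the sheddases Adam9 (log2 fold change 1.36 ± 0.11, edgeR adjusted p = 0.00011) and Adam10 (0.91 ± 0.08, 0.000163) and the membrane-bound protease Mmp15 (-1.57 ± 0.21, 0.000838). Of 15 matricellular and interstitial glycoproteins 7 were higher and 3 lower, with 3 called without KO library 1 and 5 without KO library 3. Ltbp4, which tethers latent TGF-β, was at 44.5 and 43.5 CPM in KO, 84.1 and 82.8 in E518K, and 126.4 and 117.1 in wt, so KO was lowest and wt highest, with -1.47 ± 0.07 for KO against wt on the log2 scale (edgeR adjusted p = 2.05e-05). Of 8 genes of fibrillar and other interstitial collagens 0 were called by edgeR in KO against wt. None had an unadjusted p under 0.05 or was called by DESeq2, and the edgeR count changed without wt clone 16.

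**Figure D4:**
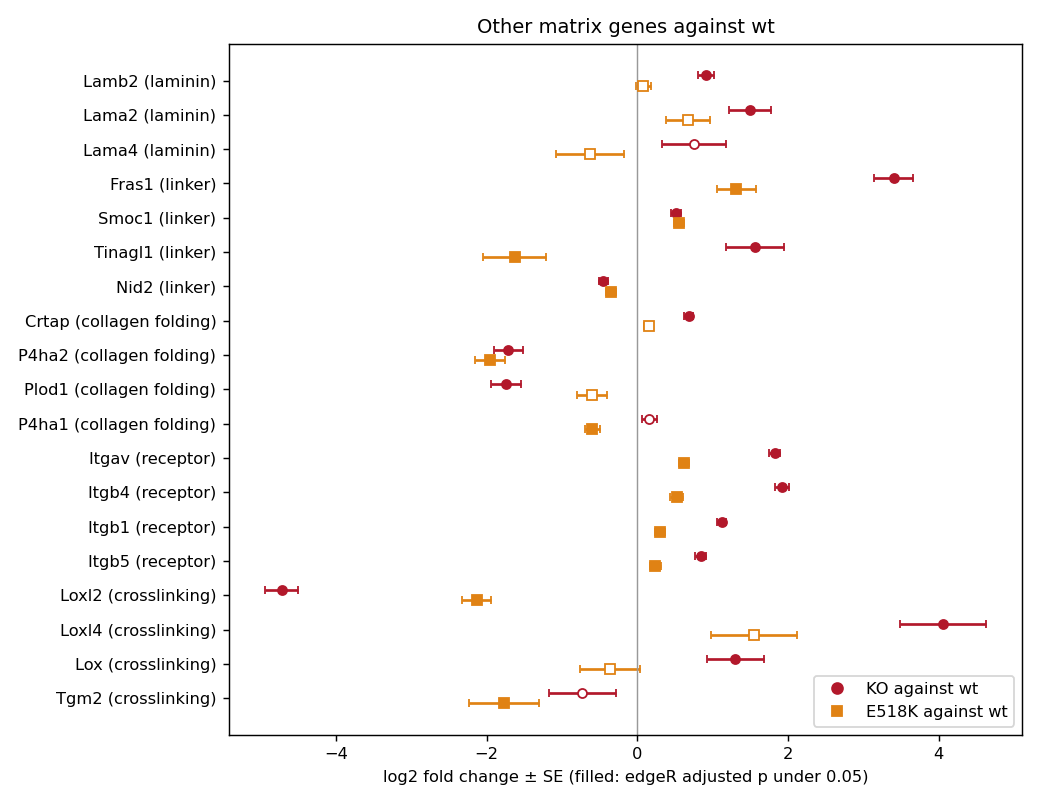
Log2 fold change with 1 standard error of the named genes from 5 of the lists, for KO against wt (circles) and E518K against wt (squares); filled points passed the edgeR test. Fras1 stands at 3.40 and Loxl2 at -4.72 in KO, and the receptors Itgav, Itgb4, Itgb1 and Itgb5 are above 0 for both comparisons.

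The cells carried the markers of embryonic stem cells. All 8 listed genes were present. Their sum was 5238.8 and 5340.9 CPM in KO, 6245.8 and 6272.0 in E518K, and 5992.6 and 6972.2 in wt, so KO was lowest. Of the 8, 1 was called higher and 6 lower in KO against wt, and Tfcp2l1 was highest in KO, at 831.4 and 829.8 CPM. Primitive and parietal endoderm is the embryonic cell type known for making much laminin and type IV collagen. Its 12 markers summed to 10.4 and 11.0 CPM in KO, 10.2 and 10.4 in E518K, and 7.12 and 12.5 in wt, and none was at 0 in any library. Lrp2 was the highest, at 1.90 to 6.69 CPM, and the transcription factor Gata4 was at 0.713 to 1.69 CPM, while Gata6, Sox17, Sox7, Dab2 and Foxa2 were each at or below 0.568 CPM in every library. Of the 9 fibroblast or feeder markers, Lum, Postn and Twist2 were too low to test. The 9 summed to 5.41 to 5.69 CPM in KO, 3.57 to 4.08 in E518K and 7.57 to 7.61 in wt. Fn1 stood in the same order, E518K, KO, wt, but the fibroblast genes differed in direction. In KO against wt 1 was called higher and 2 lower. Pdgfrb was highest in wt, at 4.14 and 2.54 CPM, while Dcn was at 0.181 and 0.207 in KO and 0.0276 and 0.0271 in wt. Trophectoderm markers summed to 83.8 to 89.7 CPM in KO, 65.0 to 73.0 in E518K and 78.5 to 88.5 in wt. The sum was lowest in E518K, where Col4a1, Col4a2, Nid1, Fn1 and Sparc were also lowest, but the trophectoderm genes differed in direction. In E518K against wt 1 was called higher and 4 lower, and in E518K against KO 3 higher and 2 lower. Cdx2 was highest in E518K, at 3.72 and 3.5 CPM. Endothelial markers summed to 207.2 to 209.2 CPM in KO, 82.9 to 87.5 in E518K and 81.6 to 95.7 in wt. Nearly all of it was Pecam1, which stem cells also express, while Cdh5 was at most 0.11 CPM. Of the 4 tested, 2 were called higher and 0 lower in KO against wt. In E518K against wt 1 was higher and 0 lower, and in E518K against KO 0 higher and 2 lower. Kdr was at 3.75 and 4.04 CPM in KO, 0.999 and 1.34 in E518K, and 0.11 and 0.216 in wt. Epithelial markers summed to 707.8 to 721.4 CPM in KO, 448.0 to 491.8 in E518K and 493.5 to 592.6 in wt, highest in KO as Lama5 was. Most of that sum was Cdh1 (356.6 to 585.2 CPM), and the 5 genes differed in direction, with 3 called higher and 2 lower in KO against wt; Cldn6 was at 0.375 and 0.505 CPM in KO against 13.2 and 9.44 in wt, and Krt18 at 1.22 and 1.43 against 3.48 and 2.87. The part of these cell types in the members' differences was not tested.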

How the data were processed

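Poly(A)-selected RNA of mouse embryonic stem cells was sequenced in pairs as 6 libraries, per the labels' protocols. Per the submitters' processing notes, STAR and bedtools were used with the build GRCm38.p6, and the sources used here give no tool versions or counting settings. The authors deposited raw read counts and TPM values per gene. Dividing count by TPM gave gene lengths that lay within 5% of the GENCODE M21 genomic span for 98.4% of 14694 genes, and within 5% of the exonic length for 4.23%.

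Counts of all 6 libraries (73642784 to 75121971 each) entered 1 fit in edgeR 4.0.16 (R 4.3.3) with TMM factors, filterByExpr at a minimum count of 10, group as the only term and 3 residual degrees of freedom, with the quasi-likelihood test and Benjamini-Hochberg adjustment over 16498 genes at 0.05. Standard errors are the log2 fold change divided by the root of F. CPM used TMM factors. The fit was tested on simulated counts with the same spread in all groups, which cannot show how it handles the unequal spread found here. Alternatives were DESeq2 1.42.0, limma 3.58.1 on log2(deposited TPM + 1), upper-quartile factors, no filter, only the 4 libraries compared, KO libraries summed and leaving out each library. On the log2(TPM + 1) scale, changes of low genes are understated. Counting error is 1 limit on single values, and with 2 libraries a group, precision is limited by their spread.

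Named members are all 10. From each list up to 4 genes with the lowest p in any comparison were eligible to be named, with the 5 genes most like Col4a1 and Col4a2 among those with a mean log2 CPM of at least 1. Members and lists were chosen with earlier results of these data known. The newer symbols Ccn1 and Ccn2 were matched through RefSeq. Promoters and microRNAs are from RefSeq (GRCm38.p6), 3′ UTRs from GENCODE M21. Values of 1 gene of the lists are not reported here.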

Additional observations from a re-analysis of the deposited data

How the results depend on the processing

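Of 10 members, Lama1, Lama5 and Lamb1 in KO against wt and Col4a2, Lama5 and Sparc in E518K against KO kept their direction and call under all 12 alternatives. The 6 members called in KO against wt became 3 with the KO libraries summed and 3 to 8 when 1 library was left out. The 8 called in E518K against wt became 4 with the KO libraries summed, 4 with only the 4 libraries compared, 2 with limma on TPM and 0 to 9 when 1 library was left out, and the 4 in E518K against KO became 3 to 6. Of the 3 members that overlap no other annotated gene (Lama1, Lamb1 and Sparc), 2 were called in KO against wt, 3 in E518K against wt and 1 in E518K against KO. Over all genes, 9429 calls in KO against wt became 6163 with the KO libraries summed and 6084 to 10958 when 1 library was left out. In E518K against wt 3917 became 1909 with the KO libraries summed, 1999 with only the 4 libraries compared and 644 to 6987 when 1 was left out. In E518K against KO 6902 became 3267 with the KO libraries summed and 3285 to 9482 when 1 was left out. The cause of these changes was not tested.

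Some values changed sign, and none of the changed values passed the test. Ranges below are of log2 fold changes with 1 library left out. KO against wt gave -0.10 (without wt clone 12) to 0.24 for Col4a1, -0.22 to 0.03 (without wt clone 16) for Nid1, and -1.26 to 0.08 (without wt clone 12) for Tgm2. Col1a2 ranged from -0.40 to 0.49, above 0 without KO library 3 (0.16) or wt clone 16, and was 0.0 with limma. E518K against wt gave -0.60 to 0.61 for Col4a5, above 0 without E518K clone 15 (0.19) or wt clone 16, and -0.09 to 0.08 for Cyr61, above 0 without E518K clone 15 (0.01) or wt clone 16. Without wt clone 16, Lamb2 was -0.04 in a range up to 0.22 and Lox 0.11 in a range from -0.71. Dgcr8 ranged from -0.67 (without wt clone 12) to 1.67 and was -0.50 without E518K clone 8. E518K against KO gave -0.01 (without KO library 1) to 0.30 for Mmp15, and with limma Nid2 was -0.01 and Smoc1 -0.05. The cause was not tested. Dgcr8 was lower in KO than in wt (-3.95, edgeR adjusted p = 0.00316), and the call was lost when KO library 1 (-4.00, 0.0586), KO library 3 (-3.89, 0.0625) or wt clone 16 (-2.35, 0.0535) was left out. No paired analysis was possible because the groups share no replicate number. Among the members, depth limits Col4a2 most, with 72 counts in its lowest library.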
